A study of Homo sapiens with 9 samples.

Results

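Jurkat cells that had been heat shocked were compared with sham-exposed Jurkat cells by the RNA each left on an oligonucleotide array 4 h later. Jurkat is an established line of human leukaemic T lymphocytes and stands for a single clone rather than for T cells at large. Cells of all groups were suspended in electroporation cuvettes at the same density. The sham group received no pulses and no heat. The heat shock group was warmed in its cuvette in a circulating water bath held well above body temperature. A further group, nsEP, received 100 electric pulses of 10 ns at 150 kV/cm, and its arrays entered the estimate of the spread and a second comparison. There were 3 arrays in each group, called biological replicates by the labels, so 6 of the 9 arrays of the series carried the comparison of heat with sham. All probe sets were used except the 62 controls of the manufacturer, which left 54613. A gene was read at its brightest probe set, and 19775 genes had one. With 3 arrays a group the p-values measure the spread between these arrays.

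The heat shock response is the best known transcriptional answer to misfolded protein. Heat shock factor 1 (HSF1) is held inactive by chaperones, is released when these are occupied by unfolded protein, forms trimers and binds inverted repeats of a short motif, the heat shock element, upstream of chaperone genes. The products are the HSP70 chaperones, the DNAJ cochaperones that load them, nucleotide exchange factors that reset them, the HSP90 and chaperonin machines, and small heat shock proteins that hold aggregating clients. Heat also induces immediate early genes, and it is known to slow splicing and the transcription of many other genes.

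Heat shock was followed by very large rises of a small set of genes. HSPA6, an HSP70 chaperone induced by stress, and FOS, a subunit of the transcription factor AP-1, rose most, and the collagen chaperone SERPINH1, the small heat shock protein CRYAB, the immediate early genes EGR1, FOSB and JUN and the stress genes GADD45B and GADD45G rose with them. Of the 19775 genes, 270 (1.37%) were called higher and 1627 (8.23%) lower relative to the median shift at an adjusted p under 0.05 (limma, Benjamini-Hochberg over 54613 probe sets). The rises were the larger changes. Among the genes called higher, 140 rose at least 4-fold and 29 at least 16-fold, with a median log2 ratio of 2.08. Among those called lower, 46 fell at least 4-fold and 0 at least 16-fold, with a median of -0.91.

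Each ratio was taken relative to the median shift, because the 54613 probe sets as a whole were higher on the heat shock arrays by a median of 0.18 on the log2 scale. That shift was not even. In the dimmest quartile of probe sets the median difference was 0.45, and in the brightest it was -0.03. Taking off 0.18 therefore raised the number of bright genes called lower. Without taking it off, 789 genes (3.99%) were lower, and each of these was also lower relative to the shift. Below, the falls of a list against sham are counted relative to the shift, and the count against 0 is added where it differs. The rises passed under either count for 269 of the 270 genes. Leaving out 1 sham or heat shock array at a time left 835 to 1068 genes lower, the fewest without sham replicate 2, and 164 to 217 genes higher, the fewest without heat shock replicate 1. A gene is named with its call below only where no such omission ended it, unless the text says otherwise.

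**Figure D1:**
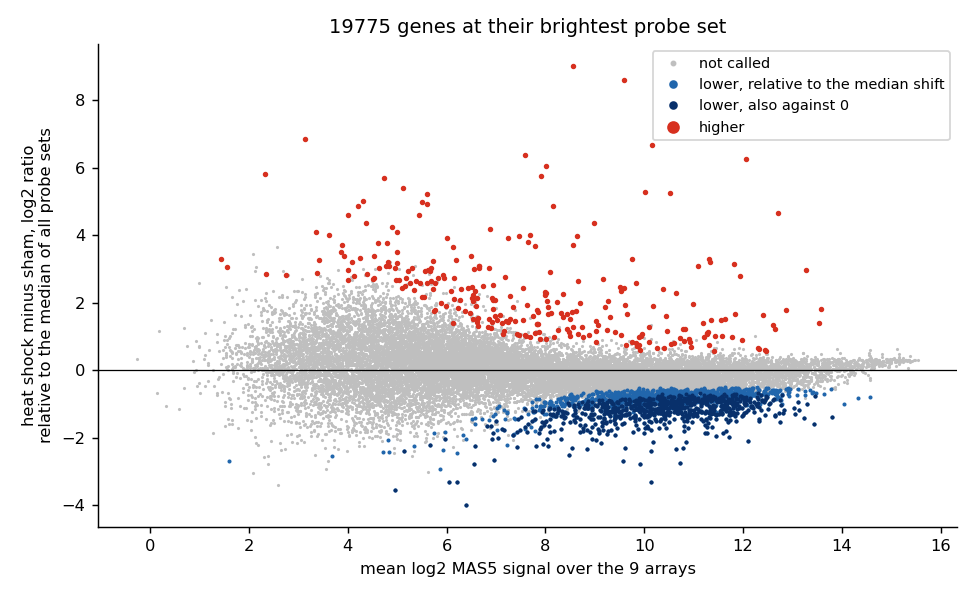
The 19775 genes by mean log2 signal over the 9 arrays (horizontal) and by the log2 ratio of heat shock to sham relative to the median of all probe sets (vertical). Rises reached 9.02 and were spread over the whole range of signal, whereas the falls went down to -3.98 and were mostly of bright genes, 1435 of the 1627 being in the brightest quartile.

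Features of the whole arrays differed between heat shock and sham. The median log2 signal was 6.65 to 6.72 on the heat shock arrays and 6.32 to 6.42 on the sham arrays, while the trimmed mean had been set to the same value on each. The poly-A RNA added before labelling read 11.07 to 11.69 after heat shock and 9.74 to 10.74 after sham. After nsEP it read 9.89, 10.02 and 11.16, the last within the heat shock range. Scaling to this RNA turned the median shift to -0.85 and gave 62 genes higher and 1958 lower. Of the 270 rises, 250 had a positive ratio on that scale too. Of the 9 T cell markers checked 8 were measured, and all 8 were above the median of all probe sets in both groups, at a summed log2 level of at least 15.84 in sham and of 15.83 to 16.17 after heat shock. CD247, CD2 and CD28 were called lower among them, CD247 (-0.75) not without heat shock replicates 1 or 3 or sham replicates 2 or 3 (adjusted p up to 0.147). The 4 B cell markers measured summed to 9.13 to 9.64 and 9.49 to 9.99, with no call, and the 1 erythroid marker to 7.68 to 8.04 and 8.15 to 8.39. The 5 myeloid markers of the same check summed to 8.25 to 8.44 in sham and 9.15 to 9.43 after heat shock, where CD14, a monocyte receptor, was called higher from a dim 1.26, 2.87 and 2.74 to 7.09, 6.70 and 7.42. The part of these differences in the results was not tested. The paper labelled a set mass of RNA for each array, so these readings give neither the number of cells nor the RNA per cell.

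The chaperone genes that rose and the sequences upstream of them are described first. The heat shock element was searched as 2 inverted units, GAANNTTC or TTCNNGAA, in the 250 bases before each RefSeq start (GRCh38.p14). Each form reads the same on both strands. The windows of a single chromosome were left out of the search and of the shares below. Of the 12 chaperone and cochaperone genes called higher, 10 had such a window and 7 of these held a match. These are counts of genes with a match in any of their windows. Counted in that way, 23.3% of the 103 chaperone list genes with a window held a match. Per single window, the share over all 35116 windows searched was 11.6%. The longer form of 3 units, GAANNTTCNNGAA or its reverse complement TTCNNGAANNTTC, which contains the shorter ones, stood in 0.441% of all windows and in those of HSPA6 and SERPINH1. The windows of the 5 genes with the largest rises among the 7 are printed 5′ to 3′ on the strand of the gene, with the matches in capitals, because they are the sequences a reader would look to for an HSF1 site. They lie at chr1:161524290-161524539 (HSPA6), chr11:75562003-75562252 (SERPINH1), chr6:31815284-31815533 (HSPA1L, minus strand), chr1:78004689-78004938 (DNAJB4) and chr19:14518398-14518647 (DNAJB1, minus strand). Where RefSeq lists several starts, the window with the most matches is shown.
HSPA6: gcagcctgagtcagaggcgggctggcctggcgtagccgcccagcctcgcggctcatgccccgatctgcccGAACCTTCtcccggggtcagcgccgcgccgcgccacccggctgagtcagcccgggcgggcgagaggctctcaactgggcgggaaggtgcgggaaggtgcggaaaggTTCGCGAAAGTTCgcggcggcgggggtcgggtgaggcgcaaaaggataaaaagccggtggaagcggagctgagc
SERPINH1: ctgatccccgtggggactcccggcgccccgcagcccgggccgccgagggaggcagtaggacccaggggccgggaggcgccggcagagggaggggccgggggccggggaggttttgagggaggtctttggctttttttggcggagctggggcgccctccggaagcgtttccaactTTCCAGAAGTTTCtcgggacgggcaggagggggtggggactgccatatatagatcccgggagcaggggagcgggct
HSPA1L: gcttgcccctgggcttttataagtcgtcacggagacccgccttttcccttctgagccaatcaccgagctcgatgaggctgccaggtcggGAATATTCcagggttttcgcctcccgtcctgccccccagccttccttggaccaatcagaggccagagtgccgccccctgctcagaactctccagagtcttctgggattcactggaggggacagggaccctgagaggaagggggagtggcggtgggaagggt
DNAJB4: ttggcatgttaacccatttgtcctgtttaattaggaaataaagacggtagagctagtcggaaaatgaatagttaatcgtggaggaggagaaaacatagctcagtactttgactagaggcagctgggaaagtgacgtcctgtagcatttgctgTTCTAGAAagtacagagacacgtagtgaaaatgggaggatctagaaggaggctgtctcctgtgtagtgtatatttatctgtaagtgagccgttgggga
DNAJB1: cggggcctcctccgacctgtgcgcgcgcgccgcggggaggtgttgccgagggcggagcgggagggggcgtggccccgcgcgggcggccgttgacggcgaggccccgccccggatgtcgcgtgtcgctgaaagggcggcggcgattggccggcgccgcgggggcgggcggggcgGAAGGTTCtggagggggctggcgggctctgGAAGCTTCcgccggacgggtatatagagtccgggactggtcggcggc

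In HSPA6 and SERPINH1 the 3 units ran without a break and began 74 and 76 bases before the start. The match of DNAJB4 began 98 bases before it, and those of DNAJB1 77 and 47 bases before it. The windows of BAG3, HSPA2 and HSPH1, which also rose, did not hold these letters. Among the genes tested that had a window, 13.0% held the shorter form, against 19.4% of the 191 genes called higher and 11.1% of the 1365 called lower. The longer form stood in 0.533%, 2.09% and 0.22% of the same sets, which were 82, 4 and 3 genes. It stood upstream of 7 chaperone list genes, of which 2 were called higher at the brightest probe set and 5 at any probe set. A match is a description of the sequence and not of binding.

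Among the HSP70 and HSP110 chaperones, 5 of 13 measured genes were higher and 1 was lower, with a median relative log2 ratio of 0.12 against -0.04 over all genes. When arrays were scaled to the poly-A RNA added before labelling, 2 were higher. HSPA6 read 5.82, 6.34 and 6.44 on the sham arrays and 14.98, 14.93 and 14.99 on the heat shock arrays. It went from about the median of the array to among its brightest probe sets, and the groups were far apart. The relative log2 ratio was 8.59 ± 0.30 (SE, n = 3 per group), with an adjusted p of 1.36e-08 in limma. HSPA1L, a close relative of the inducible HSP70 encoded beside it in the major histocompatibility locus, read 3.95, 3.56 and 3.58 in sham and 9.05, 9.0 and 8.38 after heat shock. Its ratio was 4.93 ± 0.46, but its sham values were dim, below the lower quartile of the arrays, and the ratio was 3.31 once 32 units had been added to each signal. HSPA2, an HSP70 best known from the testis, rose from a mean of 7.22 to 9.71 (ratio 2.31 ± 0.21). HSPH1, the HSP110 that exchanges the nucleotide of HSP70, rose from an already bright 12.8 to 14.8 (1.81 ± 0.15), and HSPA4L, its relative, rose by 1.29 ± 0.23. HSPA13, a microsomal HSP70, moved the other way, from 11.3 to 10.1 (ratio -1.35 ± 0.15). HSPA5, the HSP70 of the endoplasmic reticulum, did not pass (ratio -0.41 ± 0.15, adjusted p = 0.15) at its brighter probe set, while the mean of its 2 probe sets had a ratio of 0.54. HSPA1A, HSPA1B and HSPA8 share probe sets with other genes in the annotation and were not read.

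The DNAJ cochaperones bring clients to HSP70 and start its ATPase. Of 44 measured, 2 were higher and 4 lower, 2 of these against 0 as well. DNAJB1, the main stress-inducible partner of HSP70, was read at 11.92, 12.17 and 12.17 in sham and at 15.23, 15.22 and 15.23 after heat shock. The heat shock arrays were nearly level and far above sham. Its ratio was 2.96 ± 0.14 (adjusted p = 2.05e-07). DNAJB4, a relative of DNAJB1, was read at 8.50, 8.59 and 8.38 in sham and 12.09, 11.55 and 12.29 after heat shock (ratio 3.31 ± 0.20). DNAJC16 and DNAJC14, both membrane-bound members, were lower by ratios of -0.97 ± 0.17 and -0.93 ± 0.18. The other 2 falls, DNAJC12 (-2.03) and DNAJC3 (-0.74), were not called against 0. DNAJC12 lost its call without any sham array or heat shock replicate 3 (adjusted p up to 0.106), and DNAJC3 without any heat shock array or sham replicates 1 or 2 (up to 0.133). The 4 falls were 2 without heat shock replicate 3 or sham replicates 1 or 2, and 8 without nsEP replicate 3.

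BAG3, which couples HSP70 to small heat shock proteins and to autophagy, was the member of the nucleotide exchange factors that rose. It read 10.76, 10.83 and 11.13 in sham and 14.10, 13.43 and 14.09 after heat shock, with a ratio of 2.78 ± 0.19 (adjusted p = 5.11e-06). GRPEL2, a mitochondrial exchange factor, was lower by -1.21 ± 0.16 and BAG5, an inhibitor of HSP70, by -0.75 ± 0.15. The other 7 of the 10 measured did not pass. The small heat shock proteins and the collagen chaperone HSP47 gave 3 rises and 0 falls among 10 measured, with a median ratio of 1.61, and 3 of the 10 were in the dimmest quartile in sham. CRYAB, or alpha B-crystallin, read 5.12, 6.24 and 6.53 in sham and 12.72, 11.20 and 11.79 after heat shock. SERPINH1, which encodes HSP47 and is normally found in collagen-making cells, read 3.43, 3.14 and 5.64 in sham and 10.35, 8.72 and 9.36 after heat shock. The arrays did not overlap for either gene, although the replicates were wider apart than for HSPA6, and the ratios were 5.76 ± 0.65 and 5.23 ± 0.68. With 32 units added they were 5.22 and 3.73. HSPB1, or HSP27, rose from 9.57, 8.79 and 8.70 to 11.65, 10.51 and 11.27 (ratio 1.95 ± 0.32). HSPB9, another small heat shock protein, was read at a ratio of 2.57 ± 0.81 and did not pass (adjusted p = 0.0894).

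The large chaperone machines were bright in sham cells and moved little at their brightest probe sets. Of 22 measured genes of HSP90 and its cochaperones 1 was higher, FKBP4, an immunophilin that binds HSP90. FKBP4 had a ratio of 0.59 ± 0.14 (adjusted p = 0.0228), it lost its call without any sham array or without heat shock replicates 1 or 3 (up to 0.0937), and it turned to -0.26 when arrays were scaled to the poly-A spike-ins. HSP90AB1, the constitutive HSP90, read 14.19, 14.07 and 14.51 in sham and 15.03, 15.11 and 15.01 after heat shock, which did not overlap, and its ratio of 0.61 ± 0.17 narrowly missed the threshold (adjusted p = 0.0519). The inducible HSP90AA1 had 0.37 ± 0.26 and the chaperonin HSPD1, or HSP60, 0.31 ± 0.23, with adjusted p of 0.521 and 0.551. Of the 22 chaperonins and their helpers BBS12, a chaperonin-like gene, was called, at -1.68 ± 0.26, and 1 or 2 more were lower without any 1 nsEP array or without sham replicate 3. These genes have further probe sets. For HSP90AA1 2 of 4, for HSP90AB1 1 of 3 and for HSPD1 3 of 5 probe sets were called higher, the last with a ratio up to 4.47. Counted in that way, by any probe set, 19 of the 121 genes of the 6 chaperone lists were higher, where 450 of all genes (2.28%) were. At the brightest probe sets it was 12, or 9.92%, and 7 of them passed when arrays were scaled to the spike-ins. The transcript of HSF1 itself did not pass (10.01, 9.41 and 9.21 in sham, 10.05, 9.47 and 9.36 after heat shock, ratio -0.10 ± 0.29), nor did any other of the 6 heat shock factor and regulator genes measured (limma, 1 at an unadjusted p under 0.05). Of 33 genes of ubiquitin and the proteasome, 0 were higher and PSMC6 was lower by -0.56, a call that held neither against 0 nor without any sham or heat shock array or nsEP replicate 2 (adjusted p up to 0.178).

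**Figure D2:**
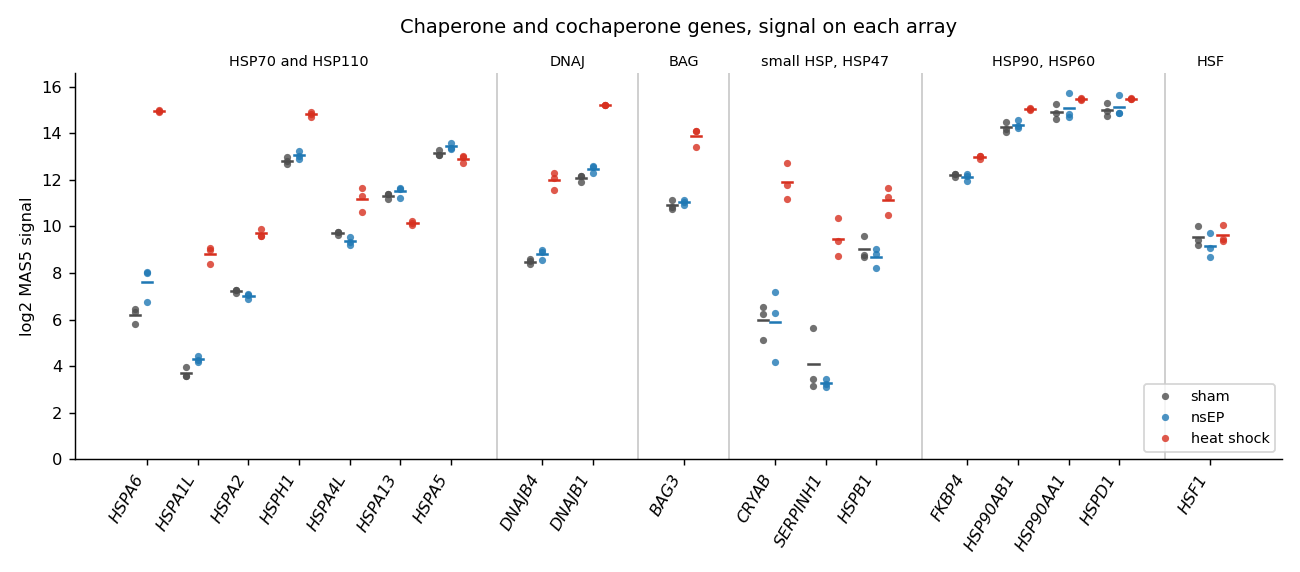
Log2 MAS5 signal of chaperone and cochaperone genes on each array (points) with group means (bars) for sham, nsEP and heat shock. HSPA6 goes from about the middle of the array to 14.9 to 15.0 after heat shock, DNAJB1 meets HSP90AA1 and HSPD1 near the top, and HSF1 stays at about the same level in the 3 groups.

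The immediate early genes made the other large group of rises. They encode transcription factors and signalling proteins that are transcribed from existing factors within minutes of a stimulus and as a rule fall again within hours, so that a reading at 4 h is a late one. Of 26 such transcription factors measured, 13 were higher and 2 lower, 1 of these against 0 as well, with a median ratio of 1.56. Scaled to the poly-A spike-ins, 9 were higher. FOS was all but unread in sham, at 2.61, 3.84 and 2.77, and reached a mean of 12.3 ± 0.23 (SD, n = 3) after heat shock, with 12.35 and 12.44 on the brightest arrays. Its ratio of 9.02 ± 0.40 (adjusted p = 7.58e-08) was 6.82 with 32 units added, since the sham values were in the dimmest quartile. FOSB, its paralog, rose from 4.10, 4.05 and 4.48 to 10.79, 10.69 and 10.85 (6.39 ± 0.34), also from dim values, and its ratio was 5.04 with 32 units added. JUN, the partner of FOS in AP-1, rose from 10.09, 9.89 and 9.85 to 14.80, 14.65 and 14.87 (4.65 ± 0.16), and 4 of its 4 probe sets were called higher. EGR1, a zinc finger factor of the same timing, rose from 7.79, 8.83 and 8.16 to 14.73, 14.86 and 14.49 (6.25 ± 0.27). The arrays of the groups were separate for these 4 genes by several log2 units. ID2, an inhibitor of helix-loop-helix factors, and EGR3 followed with 5.24 ± 0.25 and 3.98 ± 0.40, and ATF3, a stress-induced member of the ATF family, with 2.58 ± 0.21. The list also held falls. ID3, a relative of ID2, was lower by -1.52, and MYC by -0.81. Both were named after their values were seen, and MYC lost its call without any heat shock array or sham replicates 2 or 3 (adjusted p up to 0.121).

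Among 27 immediate early genes for other proteins, 11 were higher and 2 lower, the median being 0.57. Scaled to the poly-A spike-ins, 5 were higher. ARC, known as a neuronal protein, rose from 2.20, 2.89 and 3.31 to 8.56, 7.28 and 8.14, a ratio of 5.02 ± 0.64 that was 2.77 with 32 units added. SGK1, a kinase induced by serum and glucocorticoid, rose by 4.37 ± 0.33. IER5, which is known to bind HSF1, rose from 10.66, 10.92 and 10.70 to 14.25, 13.86 and 14.13 (3.14 ± 0.15), and its paralog IER5L by 3.98 ± 0.36. PPP1R15A, or GADD34, the phosphatase subunit that restores translation after stress, rose by 2.45 ± 0.26 and IER3 by 2.30 ± 0.26. Both falls, of PIM3 (-0.75) and ZFP36L2 (-0.86), were not called against 0. PIM3 lost its call without heat shock replicates 1 or 2, nsEP replicates 1 or 2 or any sham array, and ZFP36L2 without heat shock replicates 1 or 3 or sham replicates 1 or 2 (adjusted p up to 0.185 and 0.115).

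Phosphatases that switch MAP kinases off again rose as well, in 4 of 17 measured genes against 2 falls. Scaled to the poly-A spike-ins, 2 were higher. DUSP1 read 9.64, 10.07 and 9.65 in sham and 13.31, 13.04 and 13.15 after heat shock (3.20 ± 0.26). DUSP16 rose by 3.38 ± 0.38 from dim values (2.09 with 32 units added), DUSP10 by 2.34 ± 0.28 and DUSP5 by 1.75 ± 0.29. SPRED2, an inhibitor of RAF, and DUSP7 were lower, by -1.39 ± 0.20 and -1.14 ± 0.18. Of the GADD45 genes, which bind stress kinases and are grouped here with p53 targets, GADD45B rose from 7.88, 8.28 and 7.98 to 13.46, 13.54 and 13.50. That ratio, 5.28 ± 0.21, was shared by 4 of 4 probe sets. GADD45G rose by 5.41 ± 0.61 from dim values (3.35 with 32 units added) and GADD45A by 1.33 ± 0.22. The list they stood in moved no further. MDM2 and ZMAT3, both targets of p53, were lower by -1.11 ± 0.16 and -0.88 ± 0.16, and CDKN1A, the p21 inhibitor, was read at 4.57, 7.02 and 7.5 in sham and 8.68, 8.70 and 8.40 after heat shock without passing (adjusted p = 0.0559). RGS2, which shortens G protein signals, rose from 7.11, 6.70 and 7.77 to 14.08, 14.16 and 13.94 (6.69 ± 0.27). Of the 18 RGS genes measured it was the 1 called higher, and without nsEP replicate 1 there were 3.

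**Figure D3:**
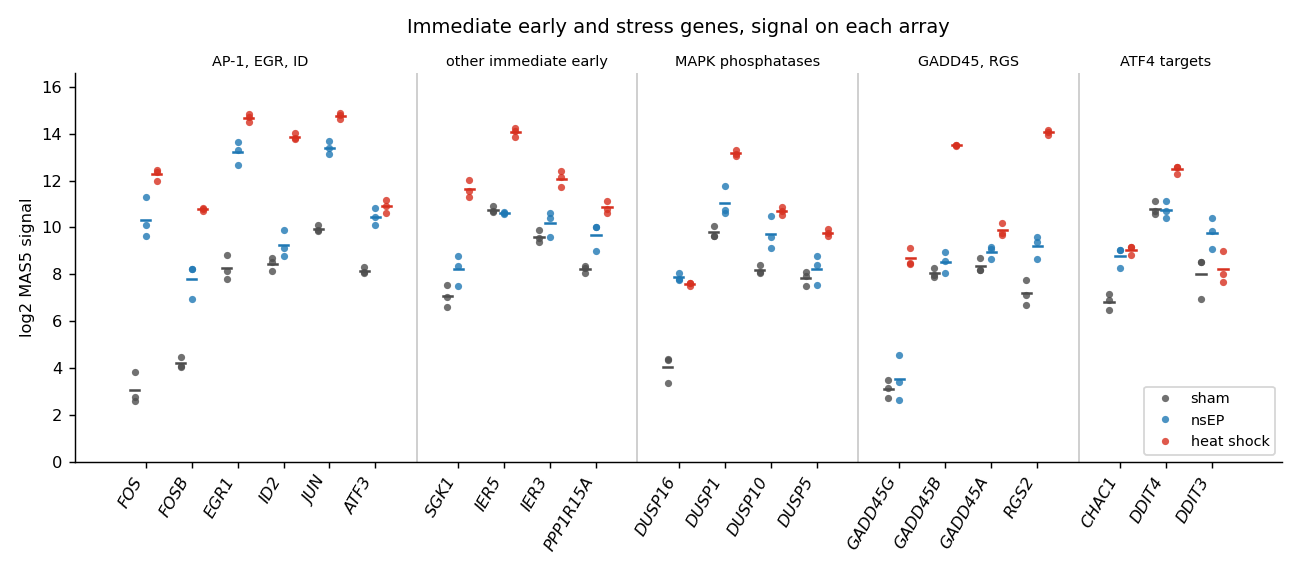
Log2 MAS5 signal of immediate early, phosphatase, GADD45, RGS and ATF4 target genes on each array (points) with group means (bars). For FOS, EGR1, JUN and FOSB the nsEP arrays lie between sham and heat shock, for GADD45B, IER5 and ID2 they lie near sham, and for DUSP16, CHAC1 and ATF3 they lie near heat shock.

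Other stress programmes moved in few of their genes. Of 24 genes of the integrated stress response under ATF4, 2 were higher and 2 lower, with a median of 0.01. The rises were of CHAC1, a glutathione-degrading enzyme (2.04 ± 0.27), and DDIT4, an inhibitor of mTORC1 (1.5 ± 0.21). Neither was called when arrays were scaled to the poly-A spike-ins. The falls were of ATF5 (-1.53 ± 0.25) and SLC7A5, an amino acid transporter (-1.07 ± 0.22), the latter not without heat shock replicates 1 or 2 or sham replicate 1 (adjusted p up to 0.0643). DDIT3, which encodes CHOP, was read at a ratio of 0.05 ± 0.46. Of 18 genes of NRF2 and redox defence, 1 was higher and 6 lower, of which 2 were lower against 0. KEAP1, the adaptor that holds NRF2 down, fell from 11.57, 11.40 and 11.16 to 9.96, 9.66 and 10.09 (-1.65 ± 0.19). HMOX1, a heme oxygenase and classical heat shock gene of rodents, was read at 6.17, 5.96 and 6.33 in sham and 7.61, 7.61 and 7.66 after heat shock. That ratio of 1.29 ± 0.33 passed (adjusted p = 0.0326), but the call was lost without any 1 of the sham or heat shock arrays (up to 0.115). The redox falls were as sensitive, with 2 lower without any 1 sham array or without heat shock replicates 2 or 3. Of 13 metallothionein and zinc genes 0 passed in limma, with 1 higher and 3 lower at an unadjusted p under 0.05. By the methods' t-test 1 was higher at an unadjusted p of at most 0.05 and a log2 ratio of at least 2 in size. Of 21 genes that answer unfolded protein in the endoplasmic reticulum 1 was higher and 3 lower, 1 of these against 0 as well. SEL1L, of its degradation pathway, was lower by -1.28 ± 0.22, and the other 3 calls, HERPUD1 higher and ERN1 and DNAJC3 lower, were lost without any heat shock array or sham replicates 1 or 2, that of ERN1 also without sham replicate 3. Hypoxia genes that are also stress genes rose, ADM from 6.66, 5.85 and 5.98 to 10.41, 10.33 and 10.32 (4.01 ± 0.32) and VEGFA by 2.47 ± 0.25 in 4 of 4 probe sets, and the glucose transporter SLC2A3 by 1.53 ± 0.29. The other 25 genes of glycolysis and hypoxia measured did not pass.

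A further large rise was that of PCK1, the cytosolic enzyme that commits carbon to gluconeogenesis. It read 0.58, 0.68 and 0.00 in sham and 7.81, 7.20 and 7.39 after heat shock. The relative log2 ratio was 6.86 ± 0.65, but with 32 units added it was 2.54, since the sham readings were at the bottom of the scale. The other 7 gluconeogenesis genes measured did not pass. C17orf99, which encodes a secreted protein, rose similarly, from 2.41, 3.32 and 2.29 to 8.08, 8.76 and 8.81 (5.70 ± 0.67, and 3.29 with 32 units added).

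RNAs that are not polyadenylated as a rule formed a further group of rises, on arrays that were labelled by a procedure for messenger RNA. RPPH1, the RNA subunit of ribonuclease P, read 5.84, 5.31 and 6.35 in sham and 11.73, 12.54 and 11.95 after heat shock, with nothing near an overlap. Its ratio was 6.06 ± 0.32 (adjusted p = 3.6e-07). RNA45SN5, a copy of the precursor of ribosomal RNA whose reads its other copies may share, rose from 9.30, 9.69 and 9.41 to 12.77, 12.92 and 12.53 (3.09 ± 0.16). The control probe set for the 5′ part of 28S ribosomal RNA read 15.42 to 15.62 after heat shock and 12.49 to 12.63 in sham. Of 19 replication-dependent histone genes measured, whose messages end in a stem-loop, 9 were higher and 0 lower, with a median of 1.17. H3C2 rose from 5.39, 4.81 and 5.54 to 8.66, 8.45 and 8.21 (3.01 ± 0.36), H3C8 by 3.40 ± 0.65 from dim values (1.76 with 32 units added), and H2BC5 by 1.74 ± 0.25. The histone count depended on single arrays. It was 3 without heat shock replicate 1, 6 without replicate 2 or 3, and 7, 5 and 4 without sham replicates 1, 2 and 3. Scaled to the spike-ins it was 1, H3C2. Near-identical histone copies may share probes. The 4 other structural and small nucleolar host RNAs measured did not pass, among them ZFAS1 (0.64 ± 0.19, adjusted p = 0.0692). Whether transcript level, tail length or labelling moved was not tested.

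**Figure D4:**
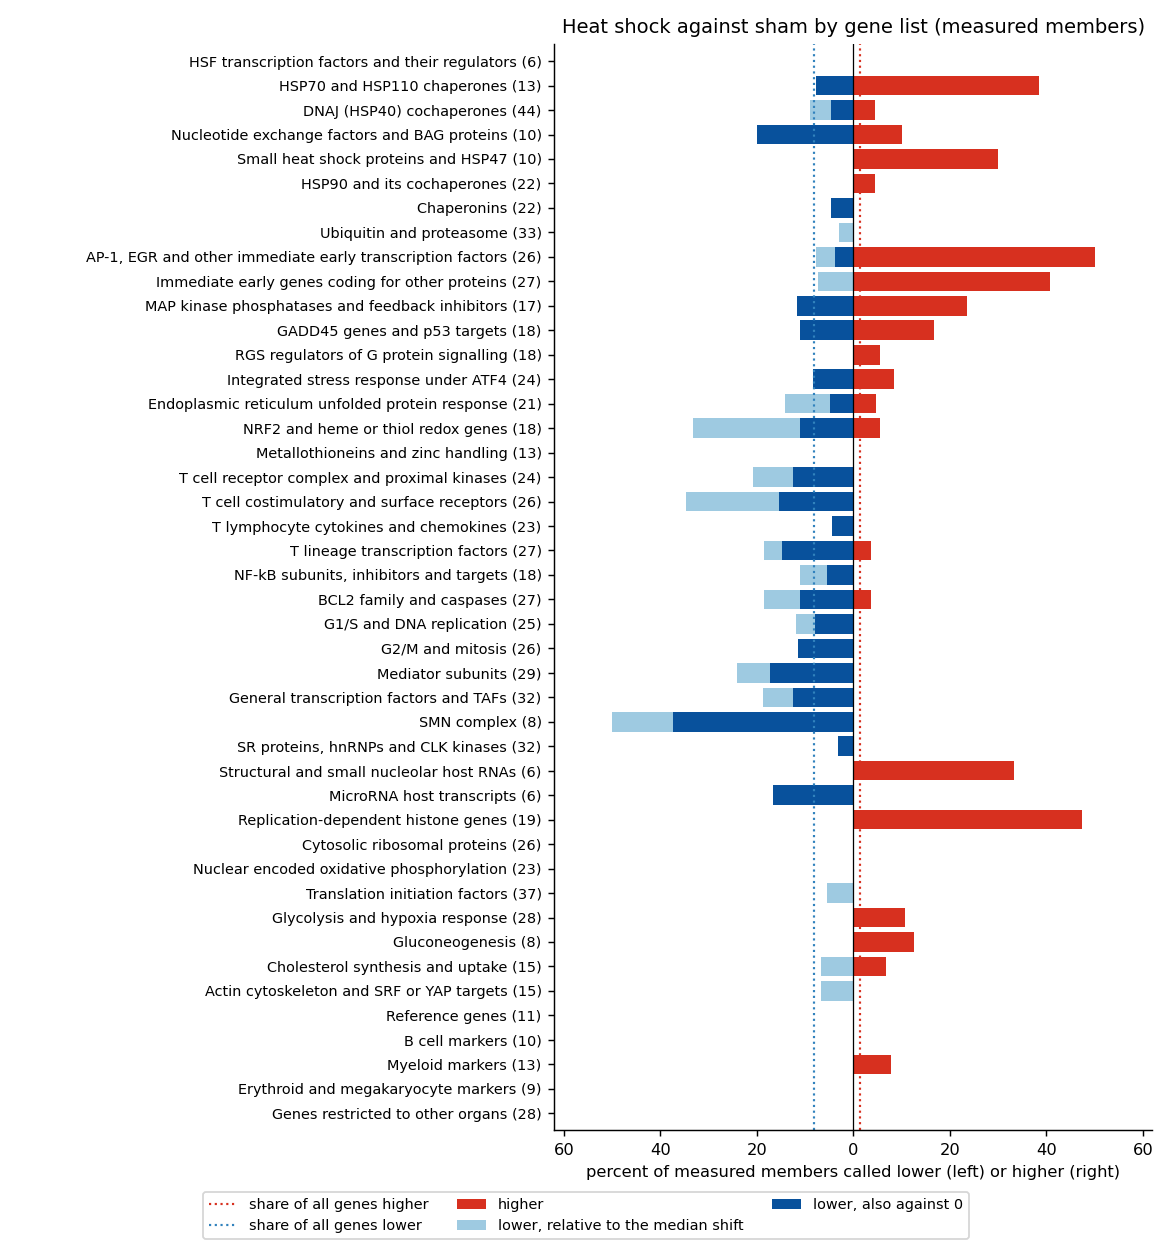
Share of the measured members of each gene list (number measured in brackets) called higher (right) or lower (left) after heat shock, with the share of all genes as dotted lines at 1.37% and 8.23%. Immediate early transcription factors (13 of 26), histone genes (9 of 19) and other immediate early genes (11 of 27) stand furthest to the right, and the SMN complex (4 of 8), T cell surface receptors (9 of 26) and redox genes (6 of 18) furthest to the left.

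The falls were of bright genes of modest ratio, so each list's count is read beside the 18.6% (1435 of 7732) of all genes read by a probe set in the brightest quartile of probe sets that were lower. In that quartile 4 of 7 SMN complex genes were lower, 9 of 17 T cell surface receptors and 6 of 15 redox genes. The shares of Mediator (6 of 27, 22.2%), general transcription factors (6 of 32, 18.8%), the T cell receptor complex (5 of 20, 25%), T lineage factors (4 of 21, 19%) and the BCL2 family and caspases (4 of 19, 21.1%) were near that of all such genes, and those of G1/S (3 of 24, 12.5%) and G2/M genes (3 of 26, 11.5%) were under it. Their members are described as single genes. Of 8 measured genes of the SMN complex, which loads Sm proteins on spliceosomal RNAs, 4 were lower, 3 of them against 0 too, with a median of -0.53. GEMIN4 read 11.38, 10.41 and 10.85 in sham and 8.27, 8.45 and 8.10 after heat shock (-2.79 ± 0.25, adjusted p = 5.55e-05). GEMIN6 read 10.52, 10.31 and 10.33 in sham and 8.21, 8.30 and 8.25 after heat shock (-2.31 ± 0.18), and DDX20, or gemin 3, was lower by -1.72 ± 0.16. The arrays of the groups did not overlap for these 3 genes, which was so in that direction for 13.7% of all genes. GEMIN5 at -0.64 was not called against 0, nor without any 1 sham or heat shock array (adjusted p up to 0.0974).

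Mediator bridges enhancer-bound factors and RNA polymerase II. Of its 29 measured subunit genes 7 were lower, 5 also against 0, and 0 higher, with a median of -0.33. MED4, of the middle module, read 11.49, 11.89 and 11.45 in sham and 8.97, 8.78 and 9.41 after heat shock. It was the largest fall of the list at -2.73 ± 0.22 (adjusted p = 2.22e-05). MED11 and MED18 of the head module were lower by -1.90 ± 0.21 and -1.82 ± 0.21 and MED31 by -1.02 ± 0.18. The count of 7 was 4 without heat shock replicate 3 or sham replicate 1 and 13 without nsEP replicate 3, the array that stood farthest from its group. Of 32 general transcription factor and TAF genes 6 were lower, 4 also against 0, and 0 higher. GTF2B, or TFIIB, which places the polymerase at the start site, fell from 11.18, 11.48 and 11.41 to 9.45, 9.35 and 9.47 (-2.11 ± 0.17, adjusted p = 3.08e-05). GTF2A1 was lower by -1.29 ± 0.14, TAF1D, of the polymerase I factor, by -1.16 ± 0.22 and GTF2E1 by -0.94 ± 0.15. The count was 4 without any heat shock array or sham replicate 2. Of 32 splicing regulators SRPK2, a kinase of SR proteins, was the member called, at -0.68 ± 0.13. Ribosomal protein genes (26 measured), nuclear genes of oxidative phosphorylation (23) and reference genes (11) gave 0 calls at their brightest probe sets in limma, with 1, 1 and 0 members at an unadjusted p under 0.05 and medians of 0.29, 0.18 and 0.13. The ratios of the ribosomal protein genes ran from 0.17 to 0.43. Before the shift was taken off, all heat shock arrays lay above all sham arrays for 25, 14 and 6 genes of these lists, and below them for 0. Over all genes the share above was 17.5%. By the mean of a gene's probe sets 2 ribosomal protein genes were higher and 1 lower. Of 37 translation initiation factors 2 were lower, EIF4E (-1.03) and EIF4A3 (-0.53), neither of them against 0 and neither without heat shock replicate 2 or sham replicates 2 or 3, EIF4A3 not without the other heat shock and sham arrays either (adjusted p up to 0.0836 and 0.156).

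Among T cell genes, the surface receptors had the largest share of falls. Of 26 costimulatory and surface receptors 9 were lower, 4 also against 0, with a median of -0.51. CD2, an adhesion receptor, read 12.25, 12.50 and 12.23 in sham and 10.51, 10.77 and 10.33 after heat shock. The groups were well apart, and the ratio was -1.97 ± 0.17 (adjusted p = 3.37e-05). CD28, the main costimulatory receptor, read 11.33, 11.81 and 11.55 in sham and 10.28, 10.84 and 10.57 after heat shock (-1.18 ± 0.19), and CD1D, which presents lipids, was lower by -1.35 ± 0.22. The count of 9 was 5, 6 and 3 without heat shock replicates 1, 2 and 3, and 5, 5 and 6 without sham replicates 1, 2 and 3. Of 24 genes of the T cell receptor complex and its kinases 5 were lower, 3 also against 0, and 3 of the 5 are adaptors. TRAT1, which holds the receptor at the surface, fell from 11.40, 11.65 and 10.90 to 9.53, 8.55 and 9.40 (-2.34 ± 0.32). SLA, an adaptor that lowers receptor levels, fell by 2.09 and THEMIS, an adaptor of thymocyte selection, by 1.86 on the log2 scale. That count was 3 without heat shock replicates 1 or 3 or sham replicates 2 or 3. The receptor chain CD3E and the kinase LCK did not pass. CD3E read 9.82, 9.98 and 9.97 in sham and 9.86, 9.97 and 9.85 after heat shock, and LCK had a ratio of 0.18 ± 0.20.

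Of 27 T lineage transcription factors, 5 were lower, 4 also against 0, and 1 higher. ELF1, an ETS factor, was lower by -1.79 ± 0.22, IKZF2, or Helios, by -1.31 ± 0.20, TOX by -1.19 ± 0.17 and NOTCH3 by -1.12 ± 0.22. HES1, a repressor induced by NOTCH, rose from 9.65, 10.82 and 9.6 to 13.05, 13.48 and 13.97 (3.30 ± 0.31). The interferon factor IRF1 was lower by -1.15 ± 0.16. TNFSF10, the death ligand TRAIL, read 8.66, 10.10 and 9.0 in sham and 6.20, 7.81 and 6.79 after heat shock (-2.50 ± 0.43), and it was the cytokine gene called among 23. Of 27 genes of the BCL2 family and caspases 5 were lower, 3 also against 0, and 1 higher. The 5 were 3 without heat shock replicate 2 or sham replicates 1 or 3, and 2 without sham replicate 2. CASP8, which starts death receptor signalling, was lower by -1.23 ± 0.14 and XIAP, a caspase inhibitor, by -1.22 ± 0.17. The rise was of MCL1 at 0.65 ± 0.14, which turned to -0.20 on the spike-in scale and lost its call without any sham array or heat shock replicates 2 or 3 (adjusted p up to 0.0827). Among cell cycle genes, PCNA, the clamp of DNA polymerase, fell from 13.81, 13.73 and 14.19 to 12.64, 12.21 and 12.64 (-1.59 ± 0.19), and CCNE2, TTK, CKS2 and KIF11 by ratios from -1.03 to -1.55. Of 25 G1/S genes 3 were lower, 2 also against 0, and of 26 G2/M genes 3, by either count.

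**Figure D5:**
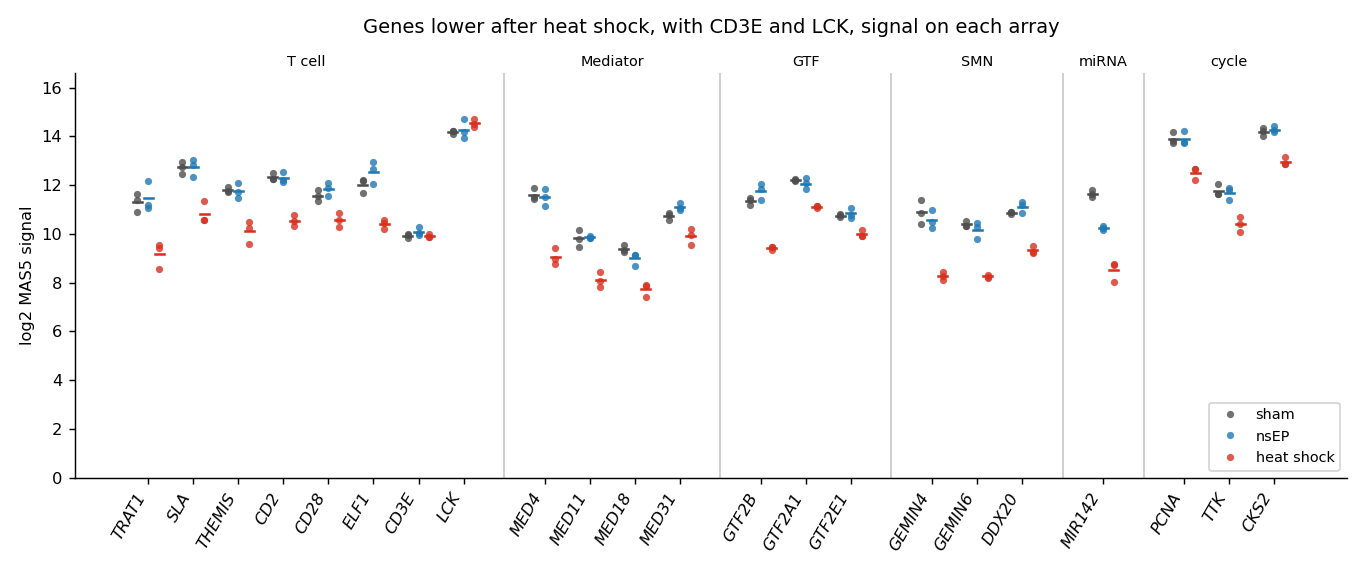
Log2 MAS5 signal on each array (points) with group means (bars) for genes lower after heat shock, with CD3E and LCK for comparison. The heat shock points lie below both other groups for TRAT1, CD2, MED4, GTF2B, GEMIN4 and PCNA, those of CD3E and LCK do not, and MIR142 is stepped, with nsEP between sham and heat shock.

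The largest falls included several RNAs that code for no protein. CARD8-AS1, an antisense RNA, read 8.06, 7.26 and 8.39 in sham and 4.96, 3.78 and 3.55 after heat shock, the largest fall of the named genes at -3.98 ± 0.46, and it was -2.55 with 32 units added. The other of its 2 probe sets was at -0.86 and was not called. MIR142 was brighter. It read 11.53, 11.78 and 11.65 in sham, 10.32, 10.25 and 10.15 after nsEP and 8.04, 8.78 and 8.71 after heat shock. The 3 groups did not overlap, and the ratio of heat shock to sham was -3.32 ± 0.19 (adjusted p = 9.68e-07) at the brighter of 2 probe sets, both of which were called lower. These probe sets read the precursor transcript of a microRNA of blood cells and not the mature strands. The mature strands, from RefSeq (GRCh38.p14, minus strand of chromosome 17), are printed with the seed, bases 2 to 8, in capitals, at chr17:58331245-58331267 for the 3p strand and chr17:58331283-58331303 for the 5p strand.
hsa-miR-142-3p: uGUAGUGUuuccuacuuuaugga
hsa-miR-142-5p: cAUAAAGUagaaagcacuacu

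The remaining large falls were of ZBTB42, a zinc finger gene (-3.30 ± 0.41), PARS2, a mitochondrial prolyl-tRNA synthetase (-2.67 ± 0.40), CHRNA9, an acetylcholine receptor subunit (-2.69 ± 0.24), and the long noncoding RNA LINC01355 (-2.76 ± 0.51). With 32 units added these ratios were -2.1, -1.90, -2.47 and -1.87. ZBTB42 was in the dimmest quartile after heat shock. LRRC10B, ATP6V0E2-AS1 and PRB1 were also among the 12 largest, at -3.32, -2.91 and -2.46, or -1.98, -1.38 and -1.67 with 32 units added. LRRC10B lost its call without sham replicate 1. The other pair was not called against 0 and lost its calls without any sham array or heat shock replicates 1 or 2, ATP6V0E2-AS1 also without nsEP replicates 1 or 2 and PRB1 also without heat shock replicate 3. For LINC01355 1 of 2 probe sets was called, the other being at -0.23, and for PRB1 1 of 3, with ratios up to 0.345. CHRNA9 stood out among these for its brightness, with 10.13, 10.44 and 10.64 in sham and 7.81, 7.88 and 7.99 after heat shock.

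Heat shock was also set against nsEP, which answers how the responses to heat and to pulses differ when both are read at 4 h. In that comparison 322 genes (1.63%) were higher after heat shock and 1461 (7.39%) lower, relative to a median shift of 0.18. It shares the heat shock arrays with the comparison above, so the members' values are set side by side and no overlap is drawn from them. Of the 121 genes of the 6 chaperone lists 13 were higher after heat shock than after nsEP and 11 lower. HSPA6 was higher after heat shock than after nsEP by 7.19 (adjusted p = 1.53e-07), with nsEP arrays at 6.74, 8.05 and 8.0. DNAJB1, BAG3, CRYAB and HSPH1 were higher by 2.56, 2.64, 5.85 and 1.58. Of the 13 HSP70 and HSP110 genes, 5 were higher after heat shock than after nsEP and 2 lower, and of the small heat shock proteins and HSP47 3 of 10 were higher.

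The immediate early genes were shared to differing degrees. FOS was higher after heat shock than after nsEP by 1.75 (adjusted p = 0.0201), EGR1 by 1.31 (0.0123) and JUN by 1.18 (0.00112), while nsEP itself had raised them over sham by 7.28, 4.96 and 3.48. For GADD45B, IER5, ID2 and RGS2 the difference between heat shock and nsEP was larger, at 4.80, 3.28, 4.43 and 4.67. ATF3, DUSP16 and CHAC1 gave differences of 0.28 (adjusted p = 0.545), -0.46 (0.587) and 0.09 (0.915). With standard errors of 0.21, 0.38 and 0.27 these do not show the treatments to act alike on them. Of the 24 ATF4 genes 10 were lower after heat shock than after nsEP and 1, DDIT4, was higher, by 1.56. DDIT3 was lower by 1.73, a relative log2 ratio of -1.73 (adjusted p = 0.0415). Values against nsEP of single genes named among the falls are given in the same way, with the heat shock arrays shared. MED4 differed by -2.63, GTF2B by -2.52, GEMIN4 by -2.47, CD2 by -1.93 and TRAT1 by -2.48.

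The genes called higher were shorter in the genome than those called lower. The median span in RefSeq was 10.4 kb for the 270 genes higher, 38.1 kb for the 1627 lower and 24.7 kb for all genes measured. For the 789 lower against 0 as well it was 30.9 kb. Long noncoding RNA genes were 30 of the 270 higher and 52 of the 1627 lower, of 2657 among all genes. These were properties of whole sets and were not tested. Of the genes called, 129 of those higher and 1177 of those lower had several probe sets. A further probe set was called the same way in 41 and 286 of them, and the opposite way in 3 and 6.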

How the data were processed

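Total RNA of 9 Jurkat samples, 3 sham, 3 nsEP and 3 heat shock, was labelled as biotin cRNA by the authors and read on an oligonucleotide array. The deposited values are log2 MAS5 signal, which the authors scaled so that the trimmed mean signal was the same on each array. Array scans were not used here. The values hold no counts, so precision depends on how many arrays were run. Of 54613 probe sets tested, 41091 were listed with 1 gene symbol, 1801 with several and 11721 with none, and genes were named from the first class (GEO's platform annotation).

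A mean per group was fitted to all 9 arrays in limma 3.58.1 (R 4.3.3) with a variance trend. Each log2 ratio less the median log2 ratio of all probe sets was tested against 0, two-sided, with Benjamini-Hochberg adjustment, and called at an adjusted p under 0.05. A gene was read at its brightest probe set over the 9 arrays. The fit was tested on simulated data. The genes named were up to 12 largest rises and falls among called genes whose arrays did not overlap and whose higher mean reached the median of all probe sets, up to 6 called members of each of 44 lists (8 for chaperones), up to 2 not called, and a fixed set of heat shock, stress and T cell genes. The members and lists were chosen with earlier results of these data known.

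Alternatives were ratios against 0, quantile and median centring, scaling to 24 poly-A spike-in probe sets, 32 signal units added, dim probe sets left out, the 6 arrays alone, no trend, array weights, a replicate block, the mean of a gene's probe sets, the methods' t-test, and each array left out. Promoter windows and microRNAs came from RefSeq, and spans from its gene table. Python 3.11.15, pandas 2.3.3 and matplotlib 3.10.9 were used.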

Additional observations from a re-analysis of the deposited data

Results flagged for a closer look

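Probe sets outside the genes reported also carried signal. Of the 1801 probe sets listed with several genes, 48 (2.67%) were called higher after heat shock, 24 of them at least 4-fold, up to a relative log2 ratio of 9.38. Of the 11721 listed with no gene, 239 (2.04%) were called higher, 127 of them at least 4-fold, up to 7.16. In these classes 78 and 212 probe sets were called lower. Over all 54613 probe sets tested, 812 were higher and 2710 lower. The control probe set for the 5′ part of 28S ribosomal RNA was higher by 2.97 on the log2 scale, at 15.42 to 15.62 after heat shock against 12.49 to 12.63 in sham and 14.14 to 14.37 after nsEP.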

How the results depend on the processing

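The directions held for most of the 230 named genes, and the counts moved. For heat shock against sham, the 270 higher and 1627 lower became 62 higher scaled to the poly-A spike-ins, 156 and 312 without the variance trend, 789 lower against 0, 709 lower after quantile normalization, 1008 lower with the mean of a gene's probe sets, and 83 and 103 by the methods' t-test after Benjamini-Hochberg. At its own thresholds, an unadjusted p of at most 0.05 and a log2 ratio of at least 2 in size, that test gave 281 higher and 40 lower. Those thresholds include a size of ratio, which the reported calls do not. Of the 1627 reported falls, 46 were at least 4-fold. For heat shock against nsEP, the 322 and 1461 became 48 and 944 on the spike-ins, 172 and 344 without the trend, 758 lower against 0, 643 lower after quantile normalization, 271 higher and 46 lower by the t-test at its thresholds and 33 and 27 after Benjamini-Hochberg. The causes were not tested. Leaving out each array in turn gave 164 to 312 higher and 835 to 1975 lower against sham, and 175 to 451 higher and 555 to 1859 lower against nsEP.

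The share of calls that were higher was 14.2% as reported, 30.1% against 0, 32.6% after quantile normalization, 9.65% with arrays centred, 3.07% on the spike-ins and 19.5% with 32 units added. Under the first 5 of these, 62 genes were higher and 629 lower throughout, and 0 were called in opposite directions. With the mean of a gene's probe sets, the ratios of HSPA5 (0.54), ERN1 (0.44), TXNRD1 (1.51), CD247 (0.03), BCL2L11 (0.18), STRAP (0.88) and MVK (-0.23) changed sign. On the spike-ins 32 named genes did, the 3 called ones being FKBP4 (-0.26), MCL1 (-0.20) and MVK (-0.08) and the other 29 not called, HSP90AB1 (-0.24) among them.

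No pairing by replicate number was seen. Same-numbered arrays correlated in their deviations by -0.16 to 0.21, and differently numbered ones by -0.26 to 0.24. With 3 arrays a group, these values cannot show that a pairing was absent. With a replicate block 262 genes were higher and 1680 lower than in sham, and 312 and 1516 than in nsEP.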

Other observations

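Some genes and groups lay outside the lists and were picked after their values were seen, so their counts are descriptions. Genes named ZNF with a number, mostly transcription repressors with zinc fingers, fell often. Of 466 measured, 87 (18.7%) were lower and 3 higher, with a median of -0.42, and 46 (9.87%) were lower against 0 as well. In the brightest quartile of probe sets 34.3% of them were lower, where 18.6% of all genes of that quartile were.

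The GIMAP genes, GTPases of lymphocyte survival that lie side by side on chromosome 7, fell in part. GIMAP7, GIMAP1 and GIMAP2 had ratios of -2.11, -1.84 and -1.71, with adjusted p of 0.000113, 0.000261 and 0.000274 in limma and calls against 0 too, while GIMAP5 and GIMAP8 were read at 0.42 and 0.81 and did not pass. Genes of the NOTCH pathway moved unevenly. HEY1, a repressor related to HES1, went from a mean log2 signal of 8.21 to 11.1 (ratio 2.70) and the ligand DLL1 from a dim 3.62 to 8.41 (4.61), while DTX1, NRARP and NOTCH1, at -0.57, 0.93 and -0.70, did not pass and NOTCH3 was lower by -1.12. Of 43 collagen genes measured 2 (4.65%) were higher, where 1.37% of all genes were, and 0 lower. They were COL1A1, from a mean of 7.39 to 11.3, and COL2A1, from 5.53 to 9.89.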
